A study of Homo sapiens with 12 samples.

Results

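Low-dose Ota was set against control in HK-2 cells after 72 h of exposure, with 3 Ota arrays and 3 control arrays, 6 of the 12 arrays of the series. The arrays were taken by their labelled compound, dose and time, and no measured value entered that choice. HK-2 cells are human epithelial cells of the renal proximal tubule, immortalised as an established line. Both groups grew in medium supplemented with insulin, transferrin, selenite, hydrocortisone and epidermal growth factor, and were exposed when nearly confluent. Control cells received the vehicle, and the labels give neither a concentration nor the full name of Ota. The remaining 6 arrays hold the same pair of groups at 24 h. They enter the choice of probe sets, the filter and the estimate of the spread behind every SE and p-value at 72 h. They are also used below where a response is compared between times. The wider study looked for expression signatures of kidney toxicity among 9 compounds. Each group's 3 arrays are called biological replicates without saying what the cultures shared, so p-values describe the spread between these samples.

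Expression was read on Affymetrix arrays as log2 values, in which a difference of 1 is a 2-fold difference and values between about 2 and 4 lie on a floor. Each of 19775 genes was represented by the brightest of its probe sets with 1 gene symbol, and the 10699 genes that exceeded 4 on 3 or more of the 12 arrays were tested with limma. A gene was called changed at a Benjamini-Hochberg adjusted p below 0.05. Below, "rose" and "fell" mean called higher or lower with Ota than with vehicle at 72 h, not a change over time. Levels are given in log2 units with the standard deviation (SD) over 3 arrays. Differences are log2 fold changes with the standard error (SE) of the fit, which shares 1 estimate of the spread per gene over the 12 arrays. Across the genes tested, arrays of the same group correlated at 0.992 to 0.994 and Ota with control arrays at 0.964 to 0.977.

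Ota changed 3421 of the 10699 genes (32.0%) at 72 h: 1827 rose (17.1%) and 1594 fell (14.9%). Of these, 358 rose and 262 fell at least 2-fold. The median difference of all genes was 0.01, with quartiles at -0.24 and 0.27. Fewer cells of a kind and less RNA per cell cannot be told apart in such bulk values. In 5498 genes (51.4%) the 3 Ota arrays all lay on one side of the 3 control arrays, and 3346 of the called genes were among them. The named groups below are read against these shares. In 292 called genes the lower group averaged under 5, close enough to the floor that the size of the change is uncertain.

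The epithelial identity of the line showed in its markers and the proximal tubule identity did not. All 6 epithelial markers were above the filter, and EPCAM averaged 13.5 in control and 13.6 in Ota cells. Among 11 proximal tubule markers measured only PAX8, a renal transcription factor, was above it, at 9.89 ± 0.11 (SD, n = 3) in control and 10.2 ± 0.21 in Ota cells. The endocytic receptor gene LRP2 and the water channel gene AQP1 were at the floor, averaging 3.02 and 2.45 in control cells. No marker of endothelial cells, leukocytes or distal nephron passed the filter. Of 7 fibroblast markers 3 did, COL1A1, DCN and LUM, while COL1A2, COL3A1, PDGFRA and PDGFRB were at the floor in both groups. The summed level of the fibroblast markers ranged from 10.1 to 10.7 on control and from 11.2 to 11.7 on Ota arrays, and the part of other cells in the results was not tested. The 3' actin control probe set exceeded the 5' one, a measure of RNA integrity, by 1.18 ± 0.17 log2 units in control and by 1.28 ± 0.08 in Ota cells, and its part in the results was not tested either.

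**Figure D1:**
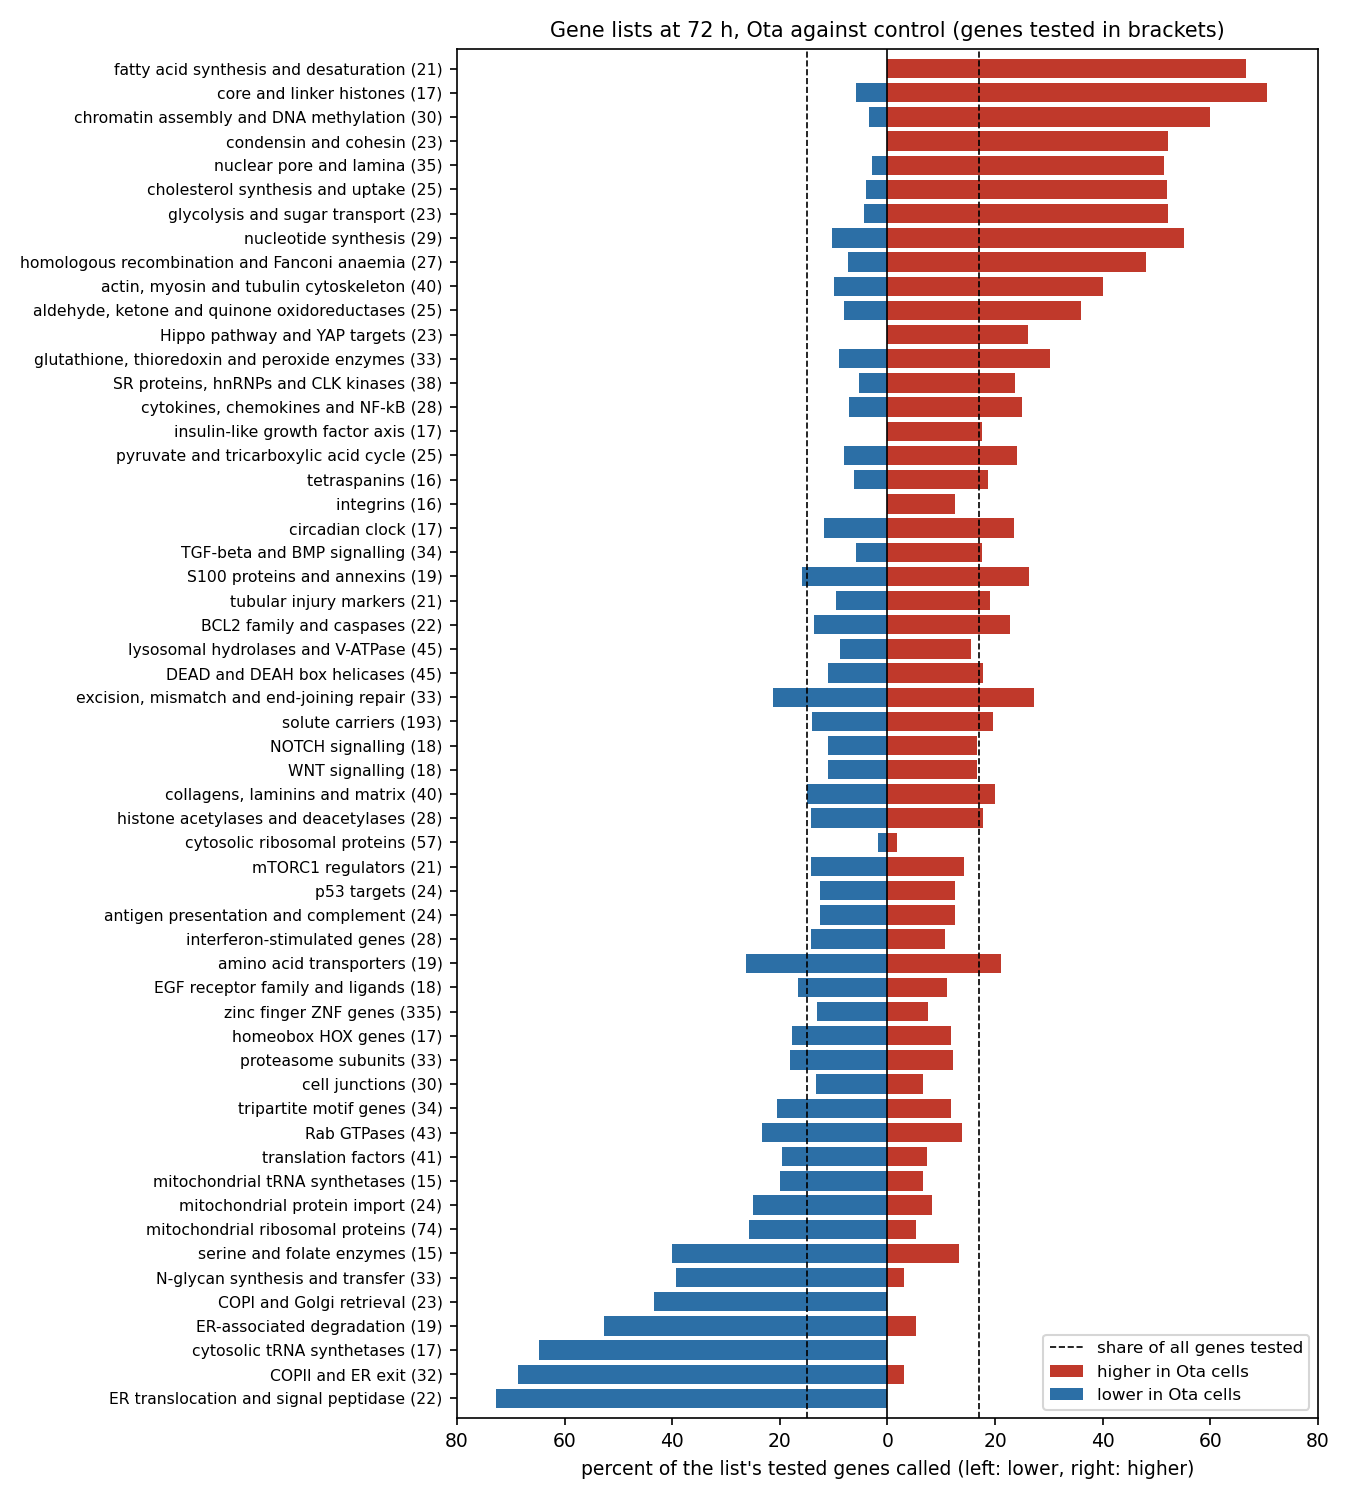
Share of each gene list called higher (red, to the right) or lower (blue, to the left) after 72 h of Ota, for lists with at least 15 genes tested. The dashed lines mark the shares among all genes tested, 17.1% higher and 14.9% lower. Furthest to the left reach ER translocation (72.7%), COPII and ER exit (68.8%) and cytosolic tRNA synthetases (64.7%), and to the right core and linker histones (70.6%), fatty acid synthesis (66.7%) and chromatin assembly (60.0%). The histone bar covers only the 17 of 57 histone symbols that passed the filter and says nothing of the family.

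The machinery that brings proteins into the endoplasmic reticulum (ER) and out to the Golgi was lower in Ota cells. Proteins destined for secretion enter the ER through the SEC61 and SEC63 channel, lose their signal peptide, receive N-glycans and leave in COPII-coated vesicles, while COPI coats return escaped proteins. Of 22 genes of translocation and signal peptide cleavage 16 fell and 0 rose, with a median difference of -0.51. Of 32 genes of COPII coats and ER exit 22 fell and 1 rose, with a median of -0.51. The COPII count was 14 lower without Ota replicate 1 and 14 without Ota replicate 3. Of 23 genes of COPI coats and Golgi retrieval 10 fell and 0 rose (median -0.34). Of 19 genes of ER-associated degradation, which removes misfolded proteins, 10 fell and 1 rose (median -0.39). Of 33 genes of N-glycan synthesis and transfer 13 fell and 1 rose (median -0.28).

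SEC11C, a signal peptidase subunit, read 10.6, 10.6 and 10.8 on the control arrays and 8.99, 9.74 and 9.08 on the Ota arrays. The groups did not overlap, Ota replicate 2 lay nearest to control, and SEC11C fell by 1.40 ± 0.17 (SE, n = 3 per group, limma adjusted p = 0.000163). SSR2, a subunit of the translocon-associated protein complex, read 12.3, 12.2 and 12.4 in control and 11.1, 11.5 and 11.2 in Ota cells. It fell by 1.03 ± 0.11 (limma adjusted p = 6.64e-05). MAGT1 and OSTC, subunits of the oligosaccharyltransferase that attaches N-glycans, fell by 0.81 ± 0.10 and 0.96 ± 0.15. GMPPA, also on the N-glycan list, fell by 1.37 ± 0.18. SEC63, part of the channel, fell by 1.26 ± 0.14 on its brightest probe set, but its probe sets ranged from -1.26 to 0.41 and their mean, at -0.47, was not called (limma adjusted p = 0.0711).

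TMED10, a cargo receptor of vesicles between ER and Golgi, read 13.1 on every control array and 12.4, 12.5 and 12.4 on the Ota arrays. The arrays of each group lay close together, and TMED10 fell by 0.67 ± 0.08 (limma adjusted p = 0.000186). YIF1A, another membrane protein of that route, fell by 0.87 ± 0.09, and MIA3, which helps load large cargo such as collagen, by 0.77 ± 0.09. SEL1L, the scaffold of an ER degradation ligase, read 12.7, 12.5 and 12.8 in control and 10.9, 11.9 and 11.2 in Ota cells, a fall of 1.33 ± 0.22 (limma adjusted p = 0.000988). UBE2J1, an ER ubiquitin-conjugating enzyme, fell by 0.97 ± 0.14 and ERLEC1, an ER lectin, by 0.93 ± 0.11. COPA, a COPI coat subunit, fell by 0.57 ± 0.11, or by 0.31 with its probe sets averaged. COPB2, another coat subunit, fell by 0.64 on its brightest probe set and was at 0.26 with its probe sets averaged (limma adjusted p = 0.119), so its direction is not settled.

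Few of the translocation, COPII and degradation genes were called at 24 h. Of all genes tested 9.44% were higher and 21.6% lower then. The ER translocation list had 0 genes higher and 1 lower, with a median of -0.03, the COPII list 3 higher and 5 lower, with a median of -0.01, and the degradation list 1 higher and 2 lower. The N-glycan list had 10 lower and 2 higher already. Tested as a difference between the times, 9 of 22 translocation genes, 12 of 32 COPII genes and 6 of 19 degradation genes had a lower response at 72 h than at 24 h, and 0 in each list a higher one. In the other secretory lists the response was lower for 2 and higher for 1 of 23 COPI genes, and lower for 7 and higher for 3 of 33 N-glycan genes. Among all genes tested 5.79% were lower and 15.5% higher in that test. For SEC11C the difference between the responses was -1.77 ± 0.24 (limma adjusted p = 0.000849) and for TMED10 it was -1.03 ± 0.12 (limma adjusted p = 0.000318). YIF1A was already lower at 24 h, by 1.03 on the log2 scale, and its responses differed by 0.16 ± 0.13, which did not pass (limma adjusted p = 0.413).

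Short motifs were searched on both strands of the promoters of these genes, from 250 bases before to 50 bases after the start in RefSeq on GRCh38.p14. The 7 motifs, the lists set beside them and the promoters printed were chosen after the values had been seen, and the shares are a description with no test. A promoter was found for 8867 of the genes tested, taking the first window listed for a gene. The ER stress response element, written CCAAT, 9 further bases and CCACG, lay in 13 of these promoters (0.147%). Of those 13 genes 12 fell, 0 rose and TRIM5 was not called, and over all 27305 promoters searched, 22 held it (0.0806%). The 12 were HSP90B1, EIF2A, CRELD2, CALR, SERP1, TMEM120A, ERO1B, XBP1, CANX, ALG12, FICD and HSPA5, several of them ER chaperones and folding factors. EIF2A and SERP1 lie head to head and their windows overlap, so they are not separate sites. The 8-base core bound by XBP1, TGACGTGG or TGACGTGT, lay in 1.35% of tested promoters, in 3.02% of genes that fell and in 1.04% of genes that rose. Among the COPI and Golgi genes 7 of 21 promoters held it (33.3%), and among the COPII genes 4 of 27. It lay in 2 of 19 translocation, 2 of 16 degradation and 0 of 29 N-glycan promoters. Of the 15 genes of these lists that held it 8 fell and 0 rose, and the 8 include COPB2, whose direction is not settled. With or without the core, 16 of 22 translocation, 22 of 32 COPII and 10 of 23 COPI genes fell. So did 10 of 19 degradation and 13 of 33 N-glycan genes.

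The upstream 250 bases of the ER stress element genes with the smallest p, HSP90B1 (the ER chaperone GRP94) and EIF2A (a translation initiation factor), and of KDELR3 (the receptor that returns ER proteins from the Golgi) are shown 5′ to 3′ along the gene. Capitals mark the stress element, on either strand, in the first pair and the XBP1 core, read on the opposite strand, in KDELR3. They lie at chr12:103930160-103930409 on the plus strand, chr3:150546537-150546786 on the plus strand and chr22:38467846-38468095 on the plus strand, GRCh38.p14.
HSP90B1: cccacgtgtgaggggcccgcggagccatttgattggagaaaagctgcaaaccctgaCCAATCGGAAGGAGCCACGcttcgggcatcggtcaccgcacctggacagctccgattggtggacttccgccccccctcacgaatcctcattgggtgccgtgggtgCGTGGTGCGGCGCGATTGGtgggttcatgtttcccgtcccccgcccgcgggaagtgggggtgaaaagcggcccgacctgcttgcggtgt
EIF2A: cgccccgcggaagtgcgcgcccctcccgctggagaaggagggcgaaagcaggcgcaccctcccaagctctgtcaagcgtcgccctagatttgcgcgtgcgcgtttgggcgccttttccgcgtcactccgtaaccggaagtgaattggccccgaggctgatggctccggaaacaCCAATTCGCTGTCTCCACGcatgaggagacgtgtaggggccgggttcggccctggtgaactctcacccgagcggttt
KDELR3: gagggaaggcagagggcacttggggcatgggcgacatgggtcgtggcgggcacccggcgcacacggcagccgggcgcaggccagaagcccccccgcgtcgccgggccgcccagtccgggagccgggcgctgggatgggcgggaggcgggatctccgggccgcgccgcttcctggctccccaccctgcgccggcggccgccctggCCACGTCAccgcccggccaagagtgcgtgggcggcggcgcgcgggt
HSP90B1 holds 2 matches, in opposite orientations, and EIF2A and KDELR3 hold 1 each. EIF2A fell by 0.69 ± 0.09 (limma adjusted p = 0.000171). KDELR3 read 11.5, 11.3 and 11.7 in control and 8.99, 9.14 and 8.86 in Ota cells, a fall of 2.50 ± 0.13 (limma adjusted p = 6.59e-07), or of 1.59 with its probe sets averaged. KDELR3 was lower at 24 h too, by 2.03, and its responses differed by -0.47 ± 0.18, which did not pass (limma adjusted p = 0.0901). HSP90B1, read from a probe set that can match other transcripts, fell by 1.61 ± 0.20 at 72 h and was at -0.05 at 24 h, a difference that passed (limma adjusted p = 0.00368).

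Most cytosolic enzymes that charge transfer RNAs were lower as well, and single enzymes of amino acid and one-carbon metabolism fell. Of 17 cytosolic tRNA synthetase genes 11 fell and 0 rose, with a median of -0.51, while of 15 mitochondrial ones 3 fell and 1 rose, with a median of -0.06, or 1 and 1 without control replicate 3 or without Ota replicate 2 or 3. IARS1, the isoleucine enzyme, read 13.7, 13.5 and 13.7 in control and 12.87, 13.10 and 12.97 in Ota cells, a fall of 0.66 ± 0.09 (limma adjusted p = 0.0004). WARS1, the tryptophan enzyme, read 11.9, 11.6 and 12.1 in control and 9.66, 10.6 and 9.96 in Ota cells and fell by 1.76 ± 0.21 (limma adjusted p = 0.000136). YARS1, the tyrosine enzyme, fell by 0.92 on its brightest probe set but was at -0.37 and not called with its probe sets averaged (limma adjusted p = 0.122). LARS2, the mitochondrial leucine enzyme, went the other way and rose by 0.89 ± 0.15. Of the cytosolic genes 7 had a lower response at 72 h than at 24 h and 1 a higher one.

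The C/EBP-ATF response element, TGATGNAA, lay in 1.66% of tested promoters and in 5 of 14 cytosolic tRNA synthetase promoters (35.7%), of which IARS1, AARS1, CARS1 and TARS1 fell and NARS1 was not called. The promoter of IARS1, at chr9:92293698-92293947 on the minus strand of GRCh38.p14, is printed with this match, read on the opposite strand, in capitals.
IARS1: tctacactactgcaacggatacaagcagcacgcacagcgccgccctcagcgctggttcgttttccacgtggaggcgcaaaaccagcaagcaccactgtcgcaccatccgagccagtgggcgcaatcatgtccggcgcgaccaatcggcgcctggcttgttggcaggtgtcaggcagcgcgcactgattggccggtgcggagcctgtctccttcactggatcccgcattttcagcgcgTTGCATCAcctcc
In genes that fell the element lay in 2.57% of promoters and in genes that rose in 1.56%. With or without the element, 11 of 17 cytosolic tRNA synthetase genes fell.

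BCAT1, which starts the breakdown of branched-chain amino acids, read 10.6, 10.2 and 10.2 in control and 7.59, 8.86 and 7.61 in Ota cells. It fell by 2.33 ± 0.39 (limma adjusted p = 0.0011), with Ota replicate 2 nearest to control. Of 15 genes of serine and folate metabolism 6 fell and 2 rose. ALDH1L2, the mitochondrial formyl-tetrahydrofolate dehydrogenase, read 8.80, 8.60 and 9.25 in control and 4.99, 6.78 and 5.60 in Ota cells. It fell by 3.09 ± 0.41 (limma adjusted p = 0.00023), or stood at -1.495 with its probe sets averaged. SHMT2, the mitochondrial serine hydroxymethyltransferase, fell by 1.06 ± 0.14 and CBS, which makes cystathionine from homocysteine, by 0.96 ± 0.16. SLC3A2, the heavy chain shared by several amino acid exchangers, fell by 0.94 ± 0.22. By contrast the 57 cytosolic ribosomal protein genes gave few calls, with 1 higher, 1 lower and a median of -0.05, although 8 were higher and 2 lower with probe sets averaged per gene.

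Genes that serve DNA synthesis outside the replication fork were higher. Of 29 nucleotide synthesis genes 16 rose and 3 fell (median 0.39). DCK, which phosphorylates salvaged deoxynucleosides, read 9.06, 9.27 and 9.15 in control and 10.6, 10.4 and 10.5 in Ota cells. It rose 2.53-fold (1.34 ± 0.12, limma adjusted p = 2.25e-05). TK1, thymidine kinase, rose by 1.22 ± 0.12, and RRM2, the regulated subunit of ribonucleotide reductase, by 1.41 ± 0.15. TK1 had been lower in Ota cells at 24 h, by 1.04, so its response differed between times by 2.26 ± 0.17 (limma adjusted p = 3.35e-05). The 3 that fell were IMPDH2, APRT and ADSL, purine enzymes, by 0.83, 0.76 and 0.48.

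Chromatin assembly and DNA methylation genes followed the same direction: 18 of 30 rose and 1, DNMT3B, fell, with a median of 0.43. ASF1B, a chaperone that hands histones to new DNA, read 6.70, 6.94 and 7.00 in control and 9.31, 9.14 and 9.47 in Ota cells. No array of one group came near the other, and ASF1B rose 5.39-fold (2.43 ± 0.11, limma adjusted p = 3.47e-07). ATAD2, a chromatin-bound ATPase, rose by 1.55 ± 0.13. Condensins and cohesins, the rings that compact and hold chromosomes, had 12 of 23 higher and 0 lower, with a median of 0.32. NCAPH, a condensin subunit, read 5.29, 5.15 and 5.05 in control and 7.41, 7.21 and 7.22 in Ota cells and rose by 2.11 ± 0.10 (limma adjusted p = 3.47e-07). CDCA5, a cohesin regulator, rose by 1.20 ± 0.12. Nuclear pore and lamina genes had 18 of 35 higher and 1 lower, with NUP85 at 0.91 ± 0.10 and POM121 at 1.55 ± 0.18, the latter already higher at 24 h by 2.04.

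Repair by homologous recombination and the Fanconi anaemia pathway, which deal with broken and cross-linked DNA, had 13 of 27 higher and 2 lower (median 0.44). BRIP1, a helicase of that pathway, read 5.89, 6.45 and 5.81 in control and 7.90, 7.89 and 7.93 in Ota cells. It rose 3.62-fold (1.86 ± 0.15, limma adjusted p = 1.28e-05). UBE2T, the ubiquitin-conjugating enzyme of the pathway, rose by 1.52 ± 0.10. BLM, a helicase that resolves recombination intermediates, rose by 2.43 ± 0.19 from a control mean of 3.94 near the floor. Excision, mismatch and end-joining repair was mixed, with 9 of 33 higher and 7 lower: NEIL3 and LIG1 rose by 1.52 and 1.46, and APEX1, the main abasic site nuclease, fell by 0.80.

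In the test of the difference between times, 16 of 29 nucleotide genes, 14 of 30 chromatin genes, 11 of 23 condensin and cohesin genes and 16 of 27 recombination genes had a higher response at 72 h, against 15.5% of all genes. In each of the chromatin and condensin lists 1 gene had a lower response. At 24 h 14 nucleotide genes were lower and 3 higher, and 9 chromatin genes were lower and 3 higher. Of the condensin and cohesin genes 5 were lower and 2 higher then, and of the recombination genes 7 lower and 0 higher. Among all genes tested 21.6% were lower and 9.44% higher at 24 h. The E2F motif, counted as TTTCCCGC, TTTGGCGC, TTTCGCGC or TTTGGCGG, lay in 5.85% of tested promoters, 8.79% of genes that rose, 12.9% of those that rose at least 2-fold and 4.6% of genes that fell. Among the nucleotide, recombination, condensin, chromatin and pore lists 21 promoters held it, and of those genes 15 rose and 0 fell. With or without the motif, 16 of 29 nucleotide, 13 of 27 recombination and 12 of 23 condensin genes rose. So did 18 of 30 chromatin and 18 of 35 pore genes. The share with the motif ran from 8.82% in the pore list to 28.6% in the chromatin list. Outside these lists it was 15.8% for p53 targets, 14.3% for proteasome subunits and 0% for COPII genes. UHRF1, which guides DNA methylation to newly copied strands, had the smallest p of them, and its promoter at chr19:4909251-4909500 on the plus strand of GRCh38.p14 is shown with the match, read on the opposite strand, in capitals.
UHRF1: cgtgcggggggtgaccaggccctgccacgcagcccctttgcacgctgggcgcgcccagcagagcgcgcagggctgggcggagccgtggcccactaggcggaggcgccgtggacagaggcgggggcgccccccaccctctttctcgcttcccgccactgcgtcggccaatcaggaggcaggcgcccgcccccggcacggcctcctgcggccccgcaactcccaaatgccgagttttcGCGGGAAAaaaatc
UHRF1 read 8.30, 8.21 and 8.13 in control and 10.1, 10.2 and 10.0 in Ota cells.

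Histone genes were a special case of the filter. Of 57 histone symbols on the list 17 were tested, of which 12 rose and 1, H2AJ, fell, with a median of 1.46. Over all histone genes with a probe set, without the filter, the median was -0.01. A gene near the floor in control cells could pass only by being higher elsewhere, so the count over the 17 says nothing of the family. H2BC5 read 6.58, 6.49 and 6.75 in control and 8.14, 7.90 and 8.14 in Ota cells and rose by 1.46 ± 0.12 (limma adjusted p = 1.66e-05). Probe sets of such similar genes can share sequence, so they may not be separate readings.

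**Figure D2:**
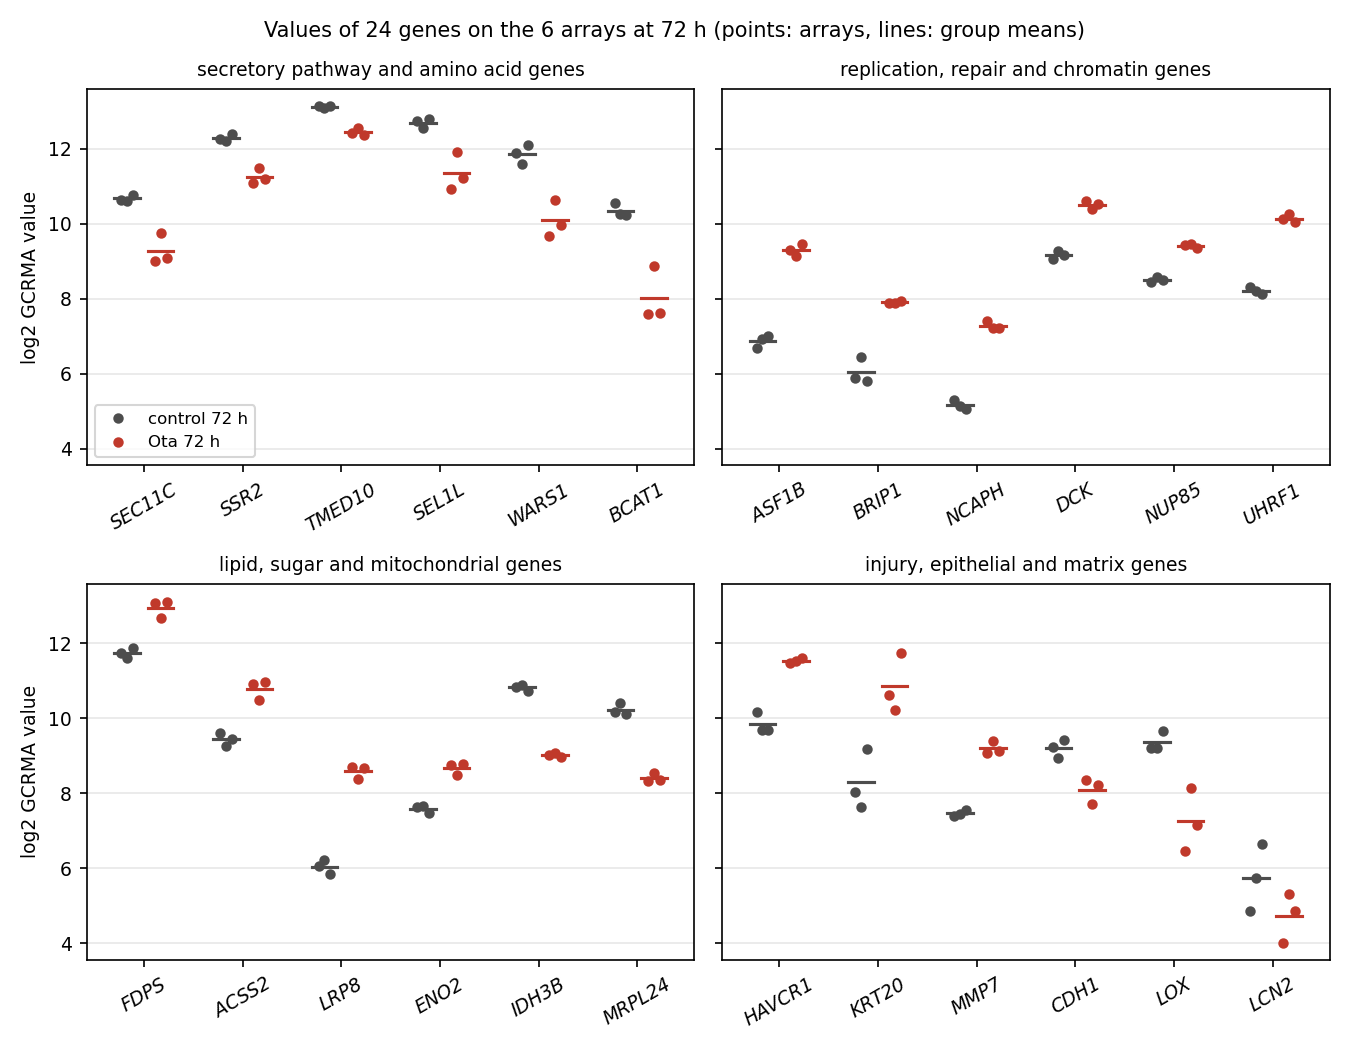
Log2 GCRMA values (vertical axes) of 24 genes on the 6 arrays at 72 h, with control arrays in grey, Ota arrays in red and a line at each group mean. Groups are apart in all genes shown except LCN2, where the control arrays run from 4.85 to 6.64 and the Ota arrays from 4.01 to 5.32.

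Lipid synthesis genes were higher in Ota cells at 72 h, and almost none was called higher at 24 h. Cells make cholesterol through the mevalonate pathway and fatty acids from acetyl-CoA, and both sets of enzymes are targets of the SREBP factors. Of 25 genes of cholesterol synthesis and uptake 13 rose and 1, TM7SF2, fell, with a median of 0.57. Of 21 genes of fatty acid synthesis and desaturation 14 rose and 0 fell (median 0.44). At 24 h the counts were 0 higher and 4 lower for the first list and 1 higher and 4 lower for the second. A higher response at 72 h than at 24 h was called for 14 of 25 and 12 of 21 of them and a lower one for 0.

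ACSS2, which makes acetyl-CoA from acetate, read 9.60, 9.27 and 9.45 in control and 10.90, 10.47 and 10.96 in Ota cells. It rose 2.52-fold (1.33 ± 0.14, limma adjusted p = 6.35e-05), having been lower at 24 h by 0.73. FASN, the fatty acid synthase, read 8.18, 7.95 and 7.55 in control and 9.62, 9.19 and 9.60 in Ota cells. It rose by 1.57 ± 0.17 (limma adjusted p = 8.37e-05), or by 0.76 with its probe sets averaged. ACSL4, which activates long polyunsaturated fatty acids, rose by 1.37 ± 0.15, or by 0.47 with such an average. In the sterol branch, ACAT2, which joins acetyl-CoA units, rose by 1.20 ± 0.16. FDPS, the farnesyl diphosphate synthase, read 11.7, 11.6 and 11.9 in control and 13.1, 12.7 and 13.1 in Ota cells. LRP8, a lipoprotein receptor of the LDL receptor family outside these lists, read 6.07, 6.21 and 5.86 in control and 8.70, 8.38 and 8.67 in Ota cells, a 5.82-fold rise (2.54 ± 0.13, limma adjusted p = 6.59e-07). It was higher at 24 h too, by 1.07. SCD, the main desaturase and already at 13.9 ± 0.08 in control cells, was at -0.01 ± 0.09 and not called. A sterol element, TCACNCCAC, lay in 1.08% of tested promoters, 1.3% of genes that rose and 1 of 23 cholesterol genes. CCAAT, which the stress element contains, lay in 17 of those 23 (73.9%) against 37.5% of tested promoters, and TATAAA in 3 of 23 (13%) against 5.03%.

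Genes of glycolysis leaned higher in Ota than in control cells, while mitochondrial genes split. Of 23 glycolysis and sugar transport genes 12 rose and 1 fell (median 0.31), and 12 had a higher response at 72 h than at 24 h. ENO2, an enolase, read 7.63, 7.66 and 7.47 in control and 8.74, 8.47 and 8.78 in Ota cells and rose 2.11-fold (1.08 ± 0.10, limma adjusted p = 3.06e-05). PFKFB3, which makes an activator of glycolysis, rose by 1.18 ± 0.21. SLC2A1, the glucose transporter GLUT1, was at -0.17 ± 0.16 and not called. In the pyruvate and tricarboxylic acid cycle list 6 of 25 rose and 2 fell. OGDH, a subunit of the oxoglutarate dehydrogenase complex, rose by 1.39 ± 0.07, or by 0.93 with its probe sets averaged. IDH3B, a subunit of the isocitrate dehydrogenase of the same cycle, read 10.8, 10.9 and 10.7 in control and 9.02, 9.07 and 8.95 in Ota cells. It fell by 1.81 ± 0.16 (limma adjusted p = 2.25e-05), while IDH3A, its partner subunit, rose by 0.88 ± 0.14.

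Mitochondrial ribosomal protein genes leaned lower, with 19 of 74 lower and 4 higher and a median of -0.10. The count lower was 9 without Ota replicate 3, 11 without control replicate 1, and 12 without control replicate 3 or without Ota replicate 1. MRPL24, of the large subunit, read 10.2, 10.4 and 10.1 in control and 8.32, 8.54 and 8.34 in Ota cells, a fall of 1.82 ± 0.12 (limma adjusted p = 4.42e-06). It was lower at 24 h too, by 1.15. At 24 h 38 of the 74 had been lower and 1 higher, and 18 had a higher response at 72 h than at 24 h.

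Redox and drug-handling genes changed member by member. Of 33 glutathione, thioredoxin and peroxide genes 10 rose and 3 fell, yet the median was -0.07. TXN and GSR, which carry and restore thiol reducing power, rose by 0.42 ± 0.08 and 0.54 ± 0.10. Among 25 aldehyde, ketone and quinone oxidoreductases 9 rose and 2 fell. DHRS2 read 2.65, 2.49 and 3.31 in control and 7.22, 6.54 and 7.51 in Ota cells and rose by 4.27 ± 0.35 (limma adjusted p = 1.43e-05), from the floor, so that the size is uncertain. DHRS2 averaged under 4 in control cells at both times and passed the filter through its Ota arrays. For such a gene only a rise could be called, and the count of 9 includes it. It was higher at 24 h too, by 3.03. DHRS11 rose by 1.73 ± 0.11, and NQO1, a quinone reductase, fell by 1.20 ± 0.15. HMOX1, a haem-degrading stress gene, read 7.33, 7.09 and 7.54 in control and 6.93, 7.20 and 7.16 in Ota cells, overlapping groups with a difference of -0.22 ± 0.13 (limma adjusted p = 0.211). Of 12 organic ion and drug transporters above the filter 5 rose and 0 fell, or 3 and 0 with probe sets averaged per gene. The count higher was also 3 without control replicate 3 or without Ota replicate 1 or 2. The median was 0.24 over these 12 and -0.01 over all 25 with a probe set, without the filter. The count thus speaks only for the 12. SLCO2A1, a prostaglandin transporter, rose by 1.39 ± 0.15 from 6.00 ± 0.33 in control cells.

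Among tubular injury markers 4 of 21 rose and 2 fell (19.0% and 9.52%, against 17.1% and 14.9% of all genes). HAVCR1, the injury molecule KIM-1, read 10.2, 9.67 and 9.69 in control and 11.5, 11.5 and 11.6 in Ota cells and rose by 1.69 ± 0.19 (limma adjusted p = 9.51e-05). Its responses differed between times by 1.58 ± 0.27 (limma adjusted p = 0.00271). LCN2, which encodes the injury marker NGAL, read 4.85, 5.75 and 6.64 in control and 4.01, 5.32 and 4.85 in Ota cells, at -1.02 ± 0.46 (limma adjusted p = 0.112). The LCN2 arrays overlapped, and it was called lower without control replicate 1, at -1.47 (limma adjusted p = 0.0333), and with the replicate number as a block (limma adjusted p = 0.0171). CDKN1A, the cell cycle inhibitor p21, rose by 0.77 ± 0.12, in a list of p53 targets with 3 of 24 higher and 3 lower, or 2 and 2 without control replicate 2. CD44, an adhesion receptor, rose by 1.19 on its brightest probe set but was at -0.09 with its probe sets averaged (limma adjusted p = 0.524).

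Epithelial genes moved in both directions. Of 7 keratins tested 3 fell and 1 rose. KRT20, a keratin of gut and urinary tract epithelium, read 8.03, 7.63 and 9.19 in control and 10.6, 10.2 and 11.7 in Ota cells. It rose 5.96-fold (2.57 ± 0.45, limma adjusted p = 0.00141), with replicate 3 highest in both groups. KRT18 and KRT10 fell by 0.87 ± 0.11 and 0.70 ± 0.09, both on probe sets of the kind that can match other transcripts. CDH1, which encodes the adherens junction protein E-cadherin, read 9.23, 8.94 and 9.42 in control and 8.35, 7.71 and 8.21 in Ota cells. It fell by 1.10 ± 0.23 (limma adjusted p = 0.00391), or by 0.70 with its probe sets averaged. CDH2, N-cadherin, was at -0.09 ± 0.07 and not called. CLDN2, a leaky claudin of the proximal tubule, rose by 1.19 ± 0.21 and CLDN3, a sealing one, fell by 0.94 ± 0.17. CLDN3 was also read from a probe set that can match other transcripts, and it fell by 0.92 with its probe sets averaged.

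Matrix genes were as mixed as the whole, with 8 of 40 higher and 6 lower. MMP7, a matrix protease, read 7.39, 7.43 and 7.56 in control and 9.08, 9.38 and 9.13 in Ota cells and rose by 1.74 ± 0.12 (limma adjusted p = 6.2e-06). LOX, which cross-links collagen, read 9.21, 9.21 and 9.64 in control and 6.46, 8.13 and 7.17 in Ota cells, a fall of 2.10 ± 0.32 (limma adjusted p = 0.00056). P4HA2, a collagen prolyl hydroxylase, fell by 0.86 ± 0.09. DCN and LUM, the small leucine-rich proteoglycans decorin and lumican, stand here because they are the fibroblast markers that passed the filter beside COL1A1, which was not called. LUM read 7.60, 7.27 and 7.65 in control and 9.62, 8.96 and 8.99 in Ota cells and rose by 1.68 ± 0.24 (limma adjusted p = 0.000391), or by 0.84 with its probe sets averaged. DCN rose by 1.09 ± 0.29 (limma adjusted p = 0.0141). Cytoskeletal genes leaned higher, with 16 of 40 higher and 4 lower, or 10 higher without Ota replicate 1 and 10 without Ota replicate 3. TUBG1, gamma-tubulin, and TAGLN2, an actin-binding protein, rose by 0.90 ± 0.11 and 0.91 ± 0.11.

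Signalling and inflammation lists varied around the shares of all genes, 17.1% higher and 14.9% lower, with single members that changed clearly. The Hippo list had 26.1% higher and 0% lower, the cytokine list 25% and 7.14%, and the TGF-beta and BMP list 17.65% and 5.88%. The interferon list had 10.7% and 14.3%, and the EGF receptor list 11.1% and 16.7%. Of 34 TGF-beta and BMP genes 6 rose and 2 fell, or 3 and 3 without control replicate 3 or without Ota replicate 1. Of 23 Hippo genes 6 rose and 0 fell, or 3 and 0 without control replicate 2 or 3 or without Ota replicate 1 or 3. Of 18 EGF receptor genes 2 rose and 3 fell, or 1 and 1 without control replicate 1 or 3 or without Ota replicate 1 or 3. Of 18 NOTCH genes 3 rose and 2 fell, or 1 and 3 without Ota replicate 1. ID2, an inhibitor of differentiation factors downstream of BMP signals, read 10.2, 10.0 and 10.0 in control and 11.4, 11.2 and 11.6 in Ota cells. It rose 2.50-fold (1.32 ± 0.12, limma adjusted p = 2.6e-05). GREM1, a secreted BMP antagonist, fell by 1.70 ± 0.31 and was lower at 24 h too, by 2.05. Among 28 cytokine, chemokine and NF-kB genes 7 rose and 2 fell. NFKBIA was among those that rose, by 0.94, or by 0.47 with its probe sets averaged. The 2 that fell were IL15 and CXCL3, a lymphocyte growth factor and a neutrophil attractant, by 0.78 and 1.16. CXCL3 fell to a mean of 4.55 near the floor. Of 28 interferon-stimulated genes 3 rose and 4 fell, or 3 and 8 in a fit on the 6 arrays at 72 h alone, with ISG15 lower by 1.10 ± 0.15 and OAS3 higher by 1.37 ± 0.24, or by 0.70 with its probe sets averaged. TGFA, a ligand of the EGF receptor, rose by 0.70 ± 0.10, while BTC, another ligand, fell by 1.86 ± 0.25 to a mean of 4.54 near the floor and by 0.98 with its probe sets averaged. BHLHE40, a repressor in the circadian clock, rose by 1.25 ± 0.19.

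Large families are best read by their shares. Of 335 zinc finger ZNF genes 25 rose (7.46%) and 44 fell (13.1%), or 8 and 26 without Ota replicate 1. ZNF367, a zinc finger gene, read 7.21, 7.51 and 6.99 in control and 8.98, 9.34 and 9.14 in Ota cells and rose by 1.92 ± 0.16 (limma adjusted p = 1.66e-05). Of 193 solute carriers 38 rose and 27 fell, with a median of 0.00, or 26 and 20 without Ota replicate 1. The zinc importer gene SLC39A10 rose by 1.13 ± 0.11. Of 43 Rab GTPases 6 rose and 10 fell, with the vesicle transport gene RAB27A higher by 0.90 ± 0.09. The Rab count lower was 6 without control replicate 1 or 3 or without Ota replicate 1 or 3. Of 45 genes on the list of lysosomal hydrolases and proton pumps 7 rose and 4 fell. The count higher was 3 without Ota replicate 1 and 4 without Ota replicate 2 or any 1 control replicate. LAMP3, on that list, averaged under 4 in both groups at 24 h and in Ota cells at 72 h. It passed the filter through its control arrays at 72 h. For such a gene only a fall could be called, and the count of 4 lower includes it. RNA helicases of the DEAD and DEAH families had 8 of 45 higher and 5 lower, or 5 and 5 without control replicate 1 or without Ota replicate 1. DDX39A, of mRNA export, rose by 1.09 ± 0.12. DDX5, a helicase of splicing and transcription, read 8.82, 8.52 and 8.60 in control and 10.3, 10.5 and 10.3 in Ota cells and rose by 1.72 ± 0.14 (limma adjusted p = 1.26e-05). At 24 h DDX5 had been higher by 3.17, and its response was smaller at 72 h by 1.46 ± 0.19 (limma adjusted p = 0.000699), written as a difference of -1.46. Among 38 SR proteins, hnRNPs and their kinases 9 rose and 2 fell, and HNRNPA3 rose by 0.75 ± 0.10, after 1.47 at 24 h. Of 9 small nucleolar RNA host genes 4 fell and 1 rose, or 2 and 1 without control replicate 3 or without Ota replicate 1. SNHG32 fell by 0.71 ± 0.11 and SNHG19 rose by 0.77 ± 0.11.

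Apoptosis genes were mixed, with 5 of 22 BCL2 family and caspase genes higher and 3 lower. BID, which carries a caspase signal to mitochondria, rose by 0.87 ± 0.12, and CASP6, an executioner caspase, by 0.91 ± 0.12. On the brightest probe sets 4 of 33 proteasome subunits were higher and 6 lower, against 10 higher and 3 lower with probe sets averaged per gene. Translation factors had 3 of 41 higher and 8 lower, or 2 and 5 without control replicate 3. CD59, an inhibitor of complement attack, rose by 0.76 ± 0.08. KAT7, a histone acetylase of replication origins, fell by 0.69 ± 0.14. DVL2, which relays WNT signals from the receptor, fell by 0.97 ± 0.13, after -2.21 at 24 h, responses that differed by 1.24 ± 0.18 (limma adjusted p = 0.00134). DDIT4, which restrains the growth kinase complex mTORC1, read 13.2, 13.2 and 13.3 in control and 11.6, 11.8 and 11.7 in Ota cells and fell by 1.53 ± 0.13 (limma adjusted p = 1.45e-05), close to its -1.62 at 24 h. HOXC10, a posterior patterning gene, fell by 0.70 ± 0.07.

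The largest changes included genes of none of these lists. MGC16275, a long non-coding RNA gene, read 6.39, 6.65 and 6.32 in control and 10.6, 10.5 and 10.5 in Ota cells. It rose 17.3-fold (4.11 ± 0.37, limma adjusted p = 2.25e-05), and it had been higher by 4.48 at 24 h. IER5L, an immediate early response gene, rose by 3.14 ± 0.09, or by 1.79 with its probe sets averaged. H2AC6, a histone gene, rose by 3.10 ± 0.36, after 5.50 at 24 h. In control cells at 24 h MGC16275 averaged 4.57 and H2AC6 4.74, close to the floor, so the sizes of their 24 h differences are uncertain. XKR4, a membrane protein gene, read 5.14, 5.28 and 5.13 in control and 8.33, 7.65 and 8.10 in Ota cells and rose by 2.84 ± 0.23, or by 1.69 with its probe sets averaged. E2F8, a repressor of the E2F family, and CCNE2, a G1 cyclin, rose by 2.26 ± 0.29 and 2.11 ± 0.16. BRI3BP, RIBC2 and the non-coding LINC01315 rose by 2.07, 2.24 and 2.19, and CSPG5, a proteoglycan, by 2.48, or 1.24 with its probe sets averaged. Among the falls, BEX2 read 11.8, 11.7 and 12.1 in control and 8.90, 9.79 and 9.27 in Ota cells, a fall of 2.56 ± 0.22 (limma adjusted p = 1.66e-05). PLPP5, a lipid phosphatase, read 9.77, 9.79 and 10.3 in control and 7.77, 7.75 and 7.64 in Ota cells, a fall of 2.25 ± 0.24 (limma adjusted p = 6.24e-05). TSPAN31, a tetraspanin, METTL23, a methyltransferase, and B9D1, of the ciliary transition zone, fell by 2.17, 2.16 and 2.13. These 4 were lower at 24 h as well, at -2.26, -2.32, -2.597 and -2.12 in the same order. TMEM45A fell by 2.04 ± 0.22 and CRELD2, a secreted ER stress protein, by 1.97 ± 0.25, neither being called at 24 h. The actin-binding gene NEXN fell by 2.00, and LINC00467 and the pseudogene OR7E37P by 2.06 each. OR7E37P was read from a probe set that can match other transcripts. The limma adjusted p of the genes in this paragraph was at most 0.000262.

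**Figure D3:**
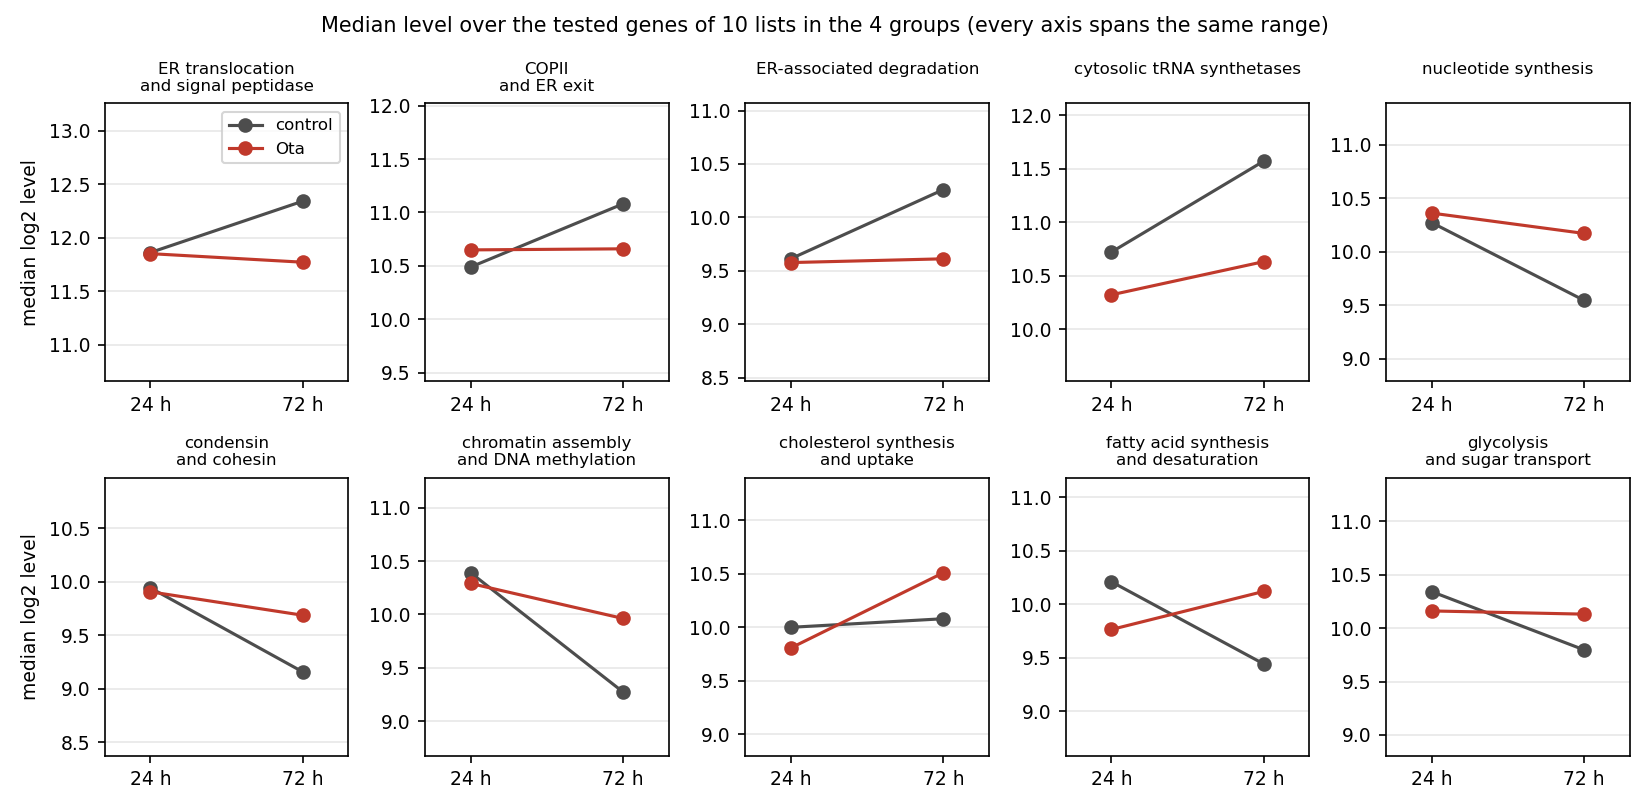
Median log2 level (vertical axes) over the tested genes of 10 lists in control cells (grey) and Ota cells (red) at 24 h and 72 h. For ER translocation the medians are 11.9 in both groups at 24 h and 12.3 and 11.8 at 72 h; for condensin and cohesin they are 9.94 and 9.91 at 24 h and 9.16 and 9.69 at 72 h.

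The levels of lists at both times are medians over genes. A median can rest on another gene in each group, so gaps between medians need not match the gene-wise differences. In control cells the median of the ER translocation list was 11.9 at 24 h and 12.3 at 72 h, while in Ota cells it was 11.9 and 11.8. Cytosolic tRNA synthetases stood at 10.7 and 11.6 in control cells and at 10.3 and 10.6 in Ota cells. Gene by gene their median difference was smaller, at -0.08 at 24 h and -0.51 at 72 h. In the other direction, the chromatin list stood at 10.4 and 9.28 in control cells and at 10.3 and 9.96 in Ota cells. Nucleotide synthesis stood at 10.3 and 9.54 in control and 10.4 and 10.2 in Ota cells. ASF1B alone stood at 9.70 in control cells at 24 h, 6.88 in control cells at 72 h and 9.31 in Ota cells at 72 h. BCAT1 stood at 7.02, 10.3 and 8.02 in the same groups. Cholesterol synthesis was different, with 10.0 and 10.1 in control cells and 9.81 and 10.5 in Ota cells. These levels are a description, since the control arrays at 72 h enter both the change over time and the Ota response.

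Genes that rose and fell also differed in a property the comparison did not use, their length on the genome in RefSeq. Of 987 genes up to 5 kb long 25.7% fell and 11.6% rose. Of 1258 genes of 100 to 200 kb 9.14% fell and 20.6% rose, and of 734 longer genes 9.26% fell and 20.4% rose. At 24 h 42.6% of the shortest genes were lower and 5.57% higher, against 10.8% and 13.2% of the longest. The median control level was 8.06 in the shortest and 7.99 in the longest class, and the part of level, probe design or gene class was not tested. Of 296 long non-coding RNA genes 35 rose (11.8%) and 68 fell (22.97%).

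**Figure D4:**
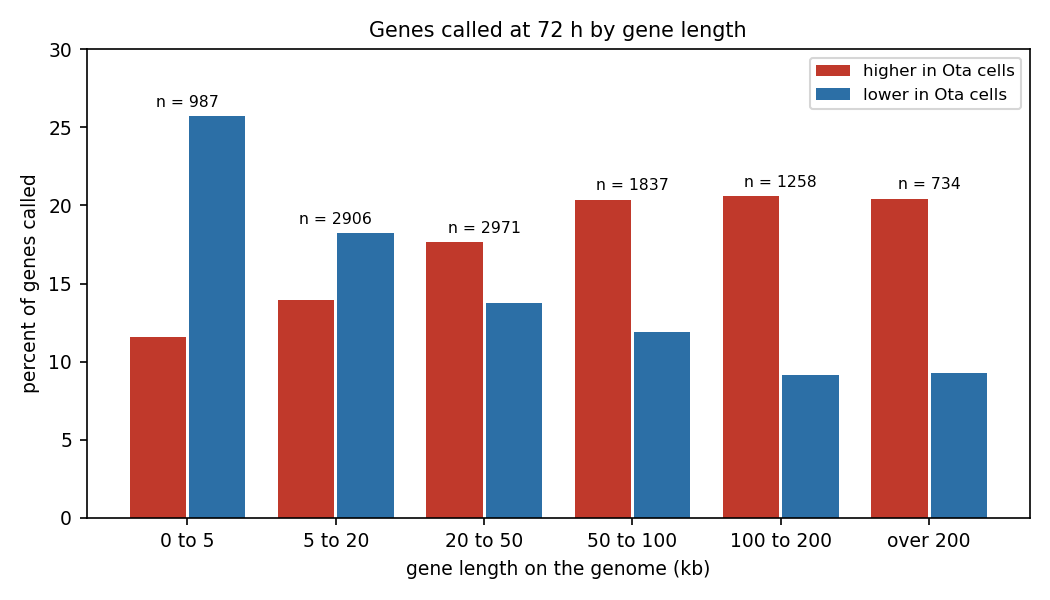
Percent of genes called higher (red) or lower (blue) in Ota cells at 72 h (vertical axis, from 0) by the length of the gene on the genome in kb (horizontal axis), with the number of genes tested above each pair of bars. The share lower runs from 25.7% in genes up to 5 kb to 9.26% in genes over 200 kb, and the share higher from 11.6% to 20.4%.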

How the data were processed

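RNA of HK-2 cells was hybridised to Affymetrix arrays, 12 in 4 groups of 3. The authors deposited log2 values made with GCRMA, per the submitters' processing notes; the software version and settings are not given in the sources used here. In its usual form GCRMA corrects background from probe sequence and equalises arrays by quantile normalization, which hides an overall shift between groups, and low values gather on a floor where fold changes are uncertain.

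Probe sets were named from the platform annotation, with symbols updated through RefSeq. Of 54675 probe sets 62 were controls, 41091 had 1 symbol (41037 updated, 54 kept), 1801 had several and 11721 had none. The brightest probe set of a gene stood for it. Several probe sets existed for 7272 of the genes tested, and 664 genes rest on a probe set ending in _x_at, whose probes can match other transcripts. A model with 1 mean per group over all 12 arrays was fitted with limma 3.58.1 in R 4.3.3, with the data.table package (1.17.8), and p-values were adjusted over the 10699 genes by Benjamini-Hochberg; it was tested on simulated data first. Array number, 3 per group, limits the precision, with a median SE of 0.13. Promoters and plots used Python 3.11.15 and matplotlib 3.10.9.

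Genes were named by a rule: the 15 largest rises and falls among called genes without overlap between groups and with both means above 5, up to 3 called genes per list by p, the 5 largest differences between times in each direction among genes called for that difference with all 4 group means above 5, and HAVCR1, LCN2, CDKN1A and HMOX1. Markers, promoter genes and IMPDH2, APRT, ADSL, DNMT3B, H2AJ, TM7SF2, SCD, SLC2A1, IDH3A, CDH2, LAMP3 and H1-2 fall outside it and were chosen after their values were seen. The members, the 63 lists and the tests were chosen with earlier results of these data known. Replicate numbers were not used as pairs in the fit reported. The deviations of same-numbered control and Ota arrays at 72 h correlated at 0.11, 0.07 and 0.27. At 24 h they correlated at 0.44, 0.32 and 0.46, and these arrays enter the same fit. The fit with the number as a block called 1221 genes higher and 2594 lower at 24 h, against 1010 and 2307 without it. At 72 h it called 2077 higher and 1797 lower, against 1827 and 1594. Leaving the block out thus gave fewer calls at both times.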

Additional observations from a re-analysis of the deposited data

Results flagged for a closer look

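The response to Ota differed between 72 h and 24 h for 2278 of the 10699 genes tested, by limma's test of the difference itself. Among genes with all 4 group means above 5, the largest positive differences (72 h response minus 24 h response, log2) were those of the keratin gene KRT20 at 3.39, WDR76 at 3.06, the kinetochore gene SPC25 at 2.78, TCF19 at 2.67 and the E2F repressor gene E2F7 at 2.56. The largest negative ones were those of BCAT1 at -2.43, TMEM45A at -2.40, CADPS2 at -2.11, CRELD2 at -2.07 and the potassium channel subunit gene KCNAB1 at -2.06. Genes nearer the floor, where sizes are less certain, had differences as large, among them ALDH1L2 at -3.15, LAMP3 at -3.12 and H1-2 at 2.80. KCNAB1 was at 0.81 at 72 h (limma adjusted p = 0.0363), a call lost without control replicate 1 or 3, without Ota replicate 2 or 3, and with no filter on low values (limma adjusted p = 0.11).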

How the results depend on the processing

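The number of genes changed at 72 h stayed within 1.5 times the 3421 reported under every alternative run, from 2460 without Ota replicate 1 to 3874 with the replicate number as a block, which kept 3359 of the 3421. The number differing between times ranged from 1555 to 2831, the latter with the block. The split was 1827 higher and 1594 lower as deposited, 1632 and 1930 with quantile normalization repeated, 1953 and 1427 with arrays at a common median of all probe sets, and 1768 and 1730 at a common median of the genes tested, an alternative chosen after seeing the data. With probe sets averaged per gene 2669 of 3300 calls were shared with those reported, and COPB2 at 0.26 (limma adjusted p = 0.119), CD44 at -0.090 (limma adjusted p = 0.524) and EPB41L4A-AS1 at 0.030 (limma adjusted p = 0.908) changed sign; the cause was not tested. Of 214 named genes over these alternatives, 3115 results kept direction and call, 83 lost the call, 2 gained it and 3 changed sign. Of 945 medians of the 63 lists, 770 moved by less than the spread between replicates and 175 by more. With the block 8 injury markers rose in place of 4, 10 TGF-beta and BMP genes in place of 6 and 6 p53 targets in place of 3, and 8 interferon-stimulated genes fell in place of 4. Genes near the floor and genes whose probe sets disagree have the least certain sizes.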
